A study of Mus musculus with 10 samples.

Results

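Olig1 and Olig2 are neighbouring genes on mouse chromosome 16 that encode basic helix-loop-helix (bHLH) transcription factors. Their messenger RNAs held 4 of the 21195 peaks in an m6A map of mouse hypothalamic neural progenitor cells, 3 in Olig1 and 1 in Olig2. A peak is an interval that the authors called as enriched, over input RNA, for RNA fragments bound by an antibody against N6-methyladenosine (m6A). The deposited IP reads of a called peak need not outnumber its input reads. Peaks were chosen by position: a peak had to share at least 50% of the shorter of peak and RefSeq gene span (GRCm38.p6), on the strand with more immunoprecipitation (IP) reads. The 4 peaks lay 100% inside their gene. The only other peak that touched either span had 163 of its 1257 bases inside Olig1 and lay on the minus strand.

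The cells were primary progenitors from the hypothalamus of E14.5 embryos with Mettl14f/f, a conditional allele of a subunit of the m6A methyltransferase, grown with FGF2 and EGF at 20 ng/ml each. All cells carried this allele. Cre recombinase deletes its floxed part, so lenti-EGFP-Cre gave the Mettl14 knockout and lenti-EGFP the control. EGFP-positive cells were sorted after 72 h, and polyadenylated RNA was cut into fragments of about 80 nt. The labels list 4 control and 4 knockout IP libraries and 1 input library of each genotype. The sources used here do not say how many embryos or cultures stood behind them.

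The deposited table gave each peak 1 number of input reads and 1 of IP reads, with no genotype or library named. The values below therefore describe pooled libraries, have no SD, and cannot show what loss of Mettl14 did to either gene. If knockout libraries were among those pooled, as the labels leave possible, the values mix cells with and without the enzyme. It is unknown whether these numbers were summed or averaged over the libraries. Intervals are exact Clopper-Pearson 95% intervals that treat them as sums of reads. They cover counting error only, because no values of single libraries were given. PCR copies could not be told from separate molecules, so even that error may be understated. In bulk RNA, fewer cells that express a gene and less RNA per cell cannot be told apart.

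Olig2 directs the formation of motor neurons and of oligodendrocyte precursors, the cells that later make myelin, and is induced by Hedgehog signalling in the ventral neural tube. Olig1 acts later, in oligodendrocyte maturation and repair. Both proteins bind E-box DNA as dimers, among others with E proteins, and Id proteins block such dimers by taking up E proteins. In mRNA, m6A is read by proteins that alter splicing, translation and decay, and it is found most often in long exons and near stop codons. Mouse Olig1 has no intron, and the coding sequence of Olig2 lies in a single exon.

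Both genes were among the most heavily read features of the map. The Olig2 peak (deposited as ENSMUSG00000039830, plus strand) ran from 91226998 to 91228172 on chromosome 16 and held 43210 input and 228230 IP reads. The first Olig1 peak (ENSMUSG00000046160, plus strand) ran from 91269772 to 91270921 and held 68971 input and 231319 IP reads. By IP reads they ranked 8 and 6 among all 21195 peaks, whose median was 864 IP reads. By input reads they ranked 22 and 9, against a median of 466 input reads. The remaining Olig1 peaks were shorter. Olig1 peak 2 (91271397 to 91271571) held 25268 input and 33345 IP reads. Peak 3 (91271772 to 91271933) held 15771 input and 20324 IP reads. With reads summed over each deposited gene entry, Olig1 (284988 IP reads) ranked 6 and Olig2 ranked 13 of 11184 entries. Such sums grow with the length and number of the peaks, and these ranks are not corrected for either.

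The 4 peaks held 0.710% of all IP reads in the map and 19.8% of the IP reads in the 729 peaks of chromosome 16. The first Olig1 peak and the Olig2 peak were the top peaks of that chromosome, and the next one held 49656 IP reads. Over all peaks the table held 26.6 M input and 72.3 M IP reads (M, 1000000). The depth of single libraries is unknown.

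**Figure D1:**
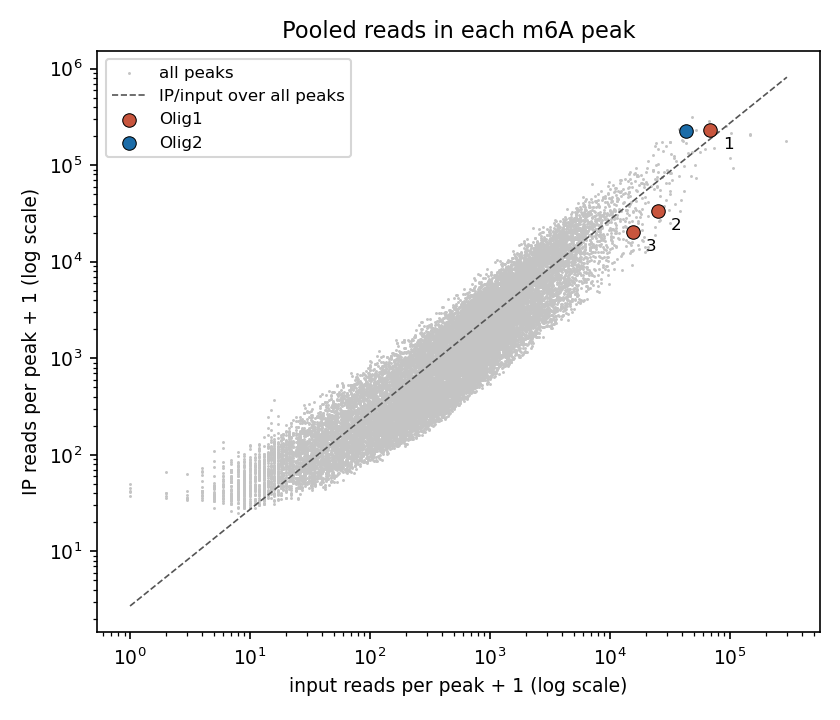
Input reads (x axis, log scale) against IP reads (y axis, log scale) of each of the 21195 peaks, with 1 added to each value; grey points are all peaks, red points the Olig1 peaks by number, and the blue point the Olig2 peak. The dashed line is the ratio of IP to input reads over all peaks, 2.71; the Olig2 peak and Olig1 peak 1 lie above it at the upper right, and Olig1 peaks 2 and 3 lie below it.

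The peaks covered different parts of the transcripts. Olig1 peak 1 began 3 bases after the gene's RefSeq start, was 1150 bases long and covered the 5' part of the span up to 53.1% of its 2171 bases. After a gap of 475 bases came peak 2 (175 bases), and after another 200 bases came peak 3 (162 bases), which ended 6 bases before the gene's end. The 3 peaks together covered 68.5% of the Olig1 span. The Olig2 peak, 1175 bases long, began 1448 bases after the start of a span of 3128 bases and ended 505 bases before its end, so that it covered 37.6% of the span, between 46.3% and 83.9% of the way along it. No peak lay in the 5' 46.3% of Olig2. These are positions along the genes' genomic spans. Which of the bases are coding was not analysed here.

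Among peaks lying wholly inside short genes, few began close to the gene's start. Peaks that crossed either end of a span were left out, so the shares below do not cover them and may understate peaks that reach the start. Of 747 peaks lying wholly inside 540 protein-coding genes of at most 5000 bases whose strand was listed, 57 (7.63%) began within 25 bases of the start. Olig1 itself is not among the 540 genes because its strand is not in that listing. Its first peak had its midpoint at 26.6% of the span, and 14.6% of the 747 peaks had theirs nearer the start. The Olig2 midpoint, at 65.1%, lay beside the median of these peaks, 60.1%. Olig1 peak 1 also covered more of its gene than 82.3% of the 747 peaks did of theirs, whose median was 19.6%.

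**Figure D2:**
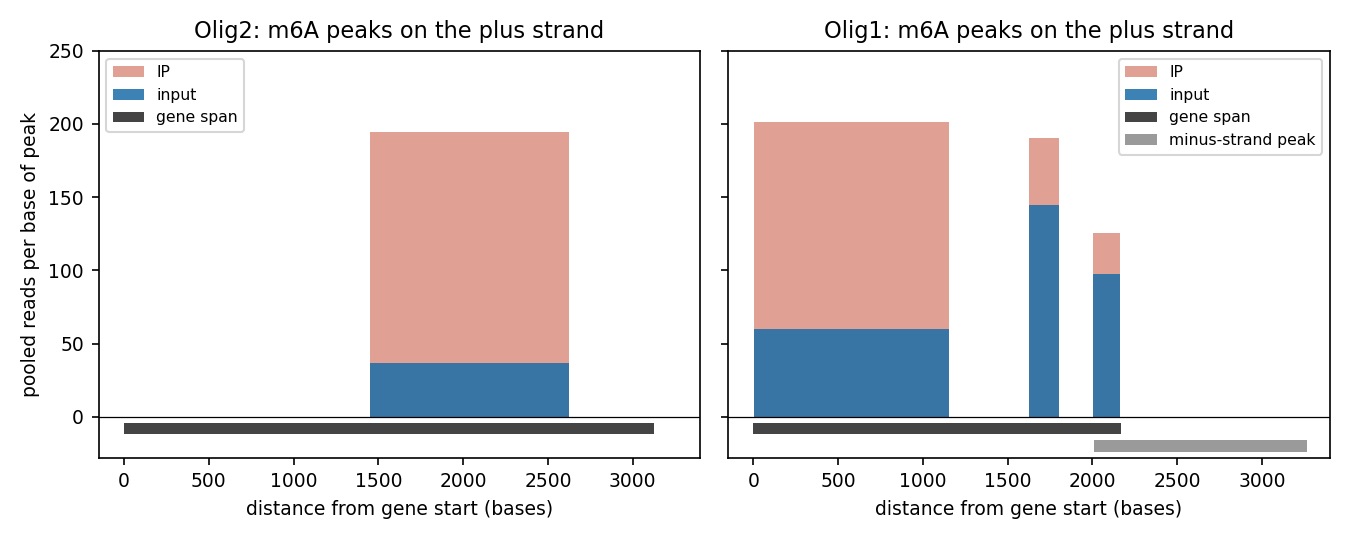
Pooled reads per base of peak (y axis) along Olig2 (left) and Olig1 (right), against the distance from the gene's start in bases (x axis); pale red bars are IP and blue bars input, both drawn from 0 in front of each other, black bars are the gene spans and the grey bar the minus-strand peak at the 3' end of Olig1. IP stands near 200 reads per base in Olig2 (194) and in Olig1 peak 1 (201), while input differs more, at 36.8 and 60.0.

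Olig1 and Olig2 carried nearly the same number of IP reads per base, and Olig2 did so on less input. The Olig2 peak had 194 IP and 36.8 input reads per base of peak. Olig1 peak 1 had 201 IP and 60.0 input reads per base. Olig1 peak 1 over the Olig2 peak was thus 1.04-fold for IP (95% interval 1.03 to 1.04) and 1.63-fold for input (1.61 to 1.65), per base.

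The ratio of IP to input reads was 5.28 in the Olig2 peak (95% interval 5.23 to 5.34). In Olig1 it was 3.35 in peak 1 (3.33 to 3.38), 1.32 in peak 2 (1.30 to 1.34) and 1.29 in peak 3 (1.26 to 1.32). The Olig2 ratio was 1.57 times that of Olig1 peak 1. The intervals of Olig2, of Olig1 peak 1 and of the 2 short Olig1 peaks were separate, whereas those of the short peaks overlapped. Without replicates, spread between libraries could not be set against these differences. Such ratios are not corrected for depth. Divided by the ratio over all peaks, 2.71, they came to 1.95 for Olig2 and to 1.24, 0.486 and 0.475 for the Olig1 peaks in their order. This divisor is summed over called peaks only, so it holds their enrichment as well as library depth. The quotients place a peak among called peaks and do not measure enrichment over input. The short peaks near the 3' end of Olig1 therefore had proportionally fewer IP reads than the map as a whole, and the Olig2 peak had more.

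Within Olig1, input coverage was higher in the short 3' peaks than in the long 5' peak. Peak 2 had 144 and peak 3 had 97.4 input reads per base, 2.41 and 1.62 times the 60.0 of peak 1. IP reads per base were highest in peak 1, with 201, against 191 in peak 2 and 125 in peak 3. A read that overlaps the edge of a short peak raises its count per base. With the fragment length of 80 nt added to each peak length, an alternative added after seeing the data, input was 56.1, 99.1 and 65.2 and IP 188, 131 and 84.0 reads per base. Peak 1 thus kept the highest IP and the lowest input coverage of the Olig1 peaks under both divisors. It held 81.2% of the gene's IP reads in peaks and 62.7% of its input reads.

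The authors' deposited table gave log2 fold changes, taken to be IP over input, of 3.34 for the Olig2 peak (10.1-fold) and 2.26 for Olig1 peak 1 (4.78-fold). For Olig1 peaks 2 and 3 the authors' deposited table gave 1.88 and 2.13. The order Olig2, Olig1 peak 1, then the short peaks was the same as that of the read ratios. The short peaks changed places, peak 2 having the higher read ratio and peak 3 the higher deposited value. In the authors' deposited table the adjusted p was 6.55e-34 for Olig2 and 2.92e-22, 3.22e-13 and 3.00e-14 for the Olig1 peaks. All 4 were under 0.05, as were 21187 of 21195 peaks (100% to 3 digits), so this call sets the members apart from almost none of the map.

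By deposited fold change neither gene stood high. The Olig2 peak exceeded 59.4% of all peaks and Olig1 peaks 1, 2 and 3 exceeded 21.0%, 9.51% and 16.8%. By the log2 read ratio (pseudocount 0.5) the same peaks exceeded 90.4%, 68.5%, 22.6% and 21.7% of all peaks. Olig2 thus stood near the top of the map by reads and nearer its middle by deposited value, and Olig1 peak 1 moved from the upper to the lower part.

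The deposited values of both long peaks lay unusually close to the plain read ratios. Over all peaks the deposited log2 fold change exceeded the log2 read ratio by a median of 1.88 (SD 0.527 across peaks), within limits of 0.17 and 2.99. The excess was 0.51 for Olig1 peak 1, and 237 peaks (1.12%) had a smaller one. For the Olig2 peak it was 0.94, and 981 peaks (4.63%) had a smaller one. In Olig1 peaks 2 and 3 it was 1.48 and 1.77, nearer the median, so the excess was not a single amount for the gene.

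Among peaks of like depth or like length, so small an excess was also uncommon. Among the 269 peaks with at least 10000 input reads the median excess was 1.89, and 4 peaks were below Olig1 peak 1 and 21 below Olig2. Among 1518 peaks of over 1000 and at most 1500 bases the median was 1.72, and 0.791% lay below Olig1 peak 1 and 6.52% below Olig2. Among the 10 peaks with the most IP reads, from 212369 to 312600, Olig1 peak 1 and the Olig2 peak had the smallest excess, and the next was 1.51. In these 10, Olig2 ranked 3 by read ratio and 7 by the authors' deposited log2 fold change, and Olig1 ranked 7 and 10. The sources used here do not state how the deposited value was normalized, and the part of that step in the difference was not tested.

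Of the other lineage genes, Ptprz1 and Tcf7l2 alone had a strongest peak with at least 10000 input reads. A gene's strongest peak is the one with its highest deposited log2 fold change. Ptprz1 and Tcf7l2 both had higher deposited values than the Olig peak nearest in read ratio. Ptprz1, a receptor phosphatase of precursors and glia, had 52712 input and 231251 IP reads in a peak of 75 bases on chromosome 6, or 4.39 IP reads per input read (95% interval 4.34 to 4.43). Its log2 fold change in the authors' deposited table was 5.02, above the 3.34 of Olig2, whose read ratio was higher. Tcf7l2, a Wnt effector that acts in oligodendrocyte differentiation, had 25168 input and 84500 IP reads in a peak of 100 bases, or 3.36 IP reads per input read (3.31 to 3.41). This overlaps the interval of Olig1 peak 1 (3.33 to 3.38), yet the authors' deposited table gave 4.34 for Tcf7l2 and 2.26 for Olig1. This did not hold for every gene of the list: Cspg4, a precursor proteoglycan with 2123 input reads, had 4.58 IP reads per input read and 3.30 in the authors' deposited table, just below Olig2.

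**Figure D3:**
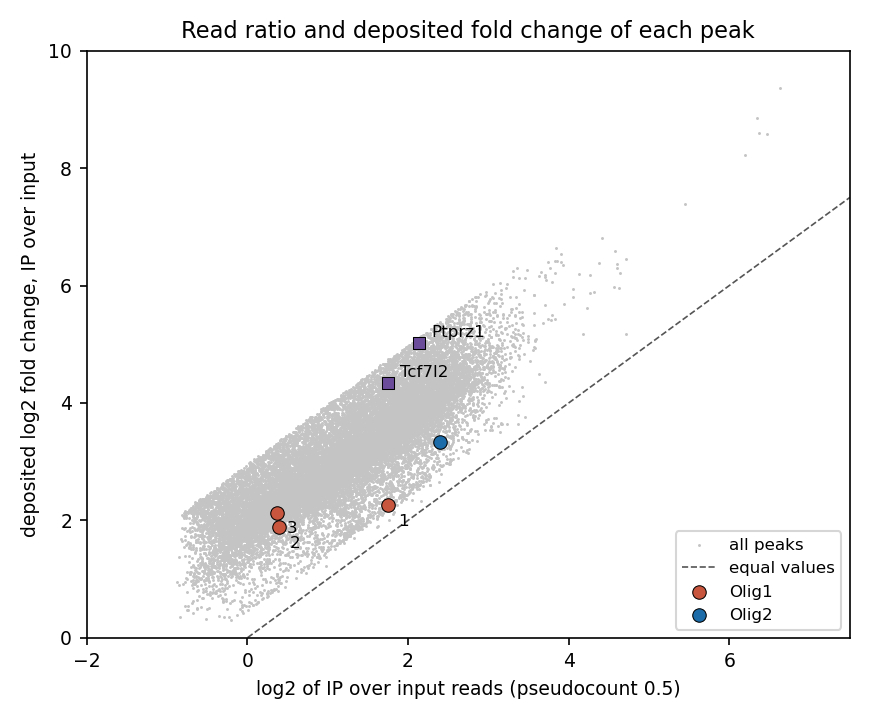
Log2 of IP over input reads (x axis, pseudocount 0.5) against the deposited log2 fold change (y axis) of each of the 21195 peaks; grey points are all peaks, red points the Olig1 peaks by number, the blue point Olig2, and squares the strongest peaks of Ptprz1 and Tcf7l2. On the dashed line both values are equal; Olig1 peak 1 lies 0.51 and Olig2 0.94 above it, against a median of 1.88.

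Besides the members, 2 peaks lay on chromosome 16 between 91200000 and 91300000, both on the minus strand and both weakly read. The first (91222100 to 91222924, deposited as ENSMUSG00000116882) ended 2626 bases before the start of Olig2 and overlapped no RefSeq gene. It held 36 input and 92 IP reads, or 2.56 IP reads per input read (95% interval 1.72 to 3.87). Its log2 value in the authors' deposited table was 2.27. The second (91271777 to 91273033, ENSMUSG00000085865) ran from inside the 3' end of Olig1 to 1094 bases past it. It held 607 input and 810 IP reads, or 1.33 IP reads per input read (1.20 to 1.48). Its log2 value in the authors' deposited table was 2.21.

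This minus-strand peak shared 157 bases with Olig1 peak 3, which is on the plus strand. Its reads came to 3.85% of that peak's input reads and 3.99% of its IP reads. Both shares are of whole peaks and do not measure the overlap, which is 12.5% of the minus-strand peak's length. Its ratio, 1.33, was also close to the 1.29 of Olig1 peak 3, and the intervals overlapped. The labels do not say whether the library kit kept the strand, so reads of Olig1 and of a transcript on the other strand may not be separable here. The next peak of the same identifier, 30662 bases past the end of Olig1, held 349 input and 436 IP reads. Its ratio was 1.25 (1.08 to 1.44), and this wide interval too overlapped that of Olig1 peak 3. Whether reads of Olig1 were counted in the minus-strand peaks was not tested. Of the long noncoding genes of RefSeq in this window, Gm52261 shares 99 bases with the 3' end of Olig2 and had no peak. Gm41492, whose end lies in the window, had 1 peak, with 17 input and 39 IP reads, outside it.

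In the closest branch of the bHLH family 1 of 3 genes had a peak, against 44.2% of protein-coding genes, too few genes to set the branch apart. Bhlhe22, a neuronal repressor, had 2 peaks. The stronger held 704 input and 654 IP reads, or 0.929 IP reads per input read (95% interval 0.834 to 1.03). The authors' deposited table gave it a log2 fold change of 2.01. Olig3, which acts in the dorsal hindbrain and spinal cord, and Bhlhe23 had no peak. A gene without a peak may be silent, unmethylated or too thinly read, and the table does not tell these apart.

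Of 7 genes for E proteins and Id inhibitors, 6 had a peak, against 44.2% of 21896 protein-coding genes by the same rule (9671 genes). Their median log2 fold change in the authors' deposited table was 3.39, against 3.51 over all genes with a peak, in each case for the gene's strongest peak. The E proteins Tcf4, Tcf12 and Tcf3, dimer partners of the Olig factors, had 3.74, 3.04 and 1.37 in the authors' deposited table. The Tcf4 peak held 4969 input and 8603 IP reads, and that of Tcf12 16468 and 29028. The Tcf3 peak held 294 reads in both. Among the inhibitors, the authors' deposited table gave 4.56 for Id4, 4.26 for Id2 and 2.68 for Id1, and Id3 had no peak by this rule. Id2 and Id4, which hold back oligodendrocyte differentiation, thus had higher deposited values than either Olig gene. With 3.57 IP reads per input read for Id2 (3.41 to 3.75), and 635 input and 1904 IP reads for Id4, both were below the 5.28 of Olig2 by read ratio. The Id4 peak given is the stronger of 2 by deposited value. It held a small part of the 10953 input and 18609 IP reads in that gene's peaks.

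In the oligodendrocyte lineage list 19 of 30 genes had a peak (63.3%, against 44.2% of protein-coding genes), Olig1 and Olig2 included. Without these members, whose peaks are the subject here, 17 of 28 had a peak (60.7%), with a median deposited value of 3.765. With the members, the median of the strongest peaks was 3.75 in the authors' deposited table, against 3.51 over all genes with a peak. Olig1 had the lowest strongest peak of the 19 genes by deposited value, below the other 17 and Olig2, and 12 of the other 17 lay above Olig2. By read ratio 3 of the 17 lay above Olig2 and 12 above Olig1. Each of the 17 had a larger excess of the deposited value over the read ratio than Olig2, from 1.05 to 2.89. Strongest peaks were picked by deposited value, which can favour a large excess in genes with several peaks, whereas Olig2 has 1. Such a peak can also hold few of the gene's reads, as in Vcan, with 84 of 11278 input reads. By IP reads summed over a gene's peaks, 1 of the 17, Ptprz1 with 251562, exceeded Olig2, and none exceeded Olig1. These sums are not per length.

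In the authors' deposited table the strongest peaks of the lineage genes ranged from 2.26 in Olig1 to 5.37 in Vcan. Vcan, a matrix proteoglycan, had this highest value in the authors' deposited table on 84 input and 523 IP reads. The Sox factors Sox5, Sox6 and Sox8 had 4.39, 4.02 and 3.44 in the authors' deposited table. For the growth factor receptor Pdgfra, a marker of precursors, the authors' deposited table gave 3.75. Nkx2-2 and Nkx6-1, homeodomain factors of ventral progenitors where Olig2 acts, had 3.53 and 2.86, and the Olig2-interacting zinc finger factor Zfp488 had 4.03, in the authors' deposited table. Lhfpl3 had 4.37 and Bcas1 2.72 in the authors' deposited table. The peak counted for Gpr17 (3.77 in the authors' deposited table) also lies in Lims2 and spans the whole of Gpr17, so position alone cannot place it in either gene. The authors deposited it under a single identifier, ENSMUSG00000024395. Whether this identifier names Gpr17 or Lims2 was not checked here. By the position rule the peak still counts for Gpr17 in the counts and medians of the lineage list. The median of 3.765 without the members is the value of this peak, so it rests on that placement. Sox10, the factor that works with Olig2 in precursors, Nkx6-2 and Enpp6 had no peak.

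Among the 11 genes of the list that belong to myelinating cells, 3 had a peak (27.3%, against 44.2% of protein-coding genes) and 8 had none (Mbp, Mog, Mag, Mobp, Cldn11, Ermn, Myrf and Tspan2). With 11 genes, this difference is not read as a property of the group. Of the 3, Cnp had 3041 input and 6680 IP reads, and the authors' deposited table listed it at 2.60. Ugt8a and Opalin had 10 and 80 input reads, with 4.25 and 2.29 in the authors' deposited table. The Olig2 peak alone held 228230 IP reads.

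**Figure D4:**
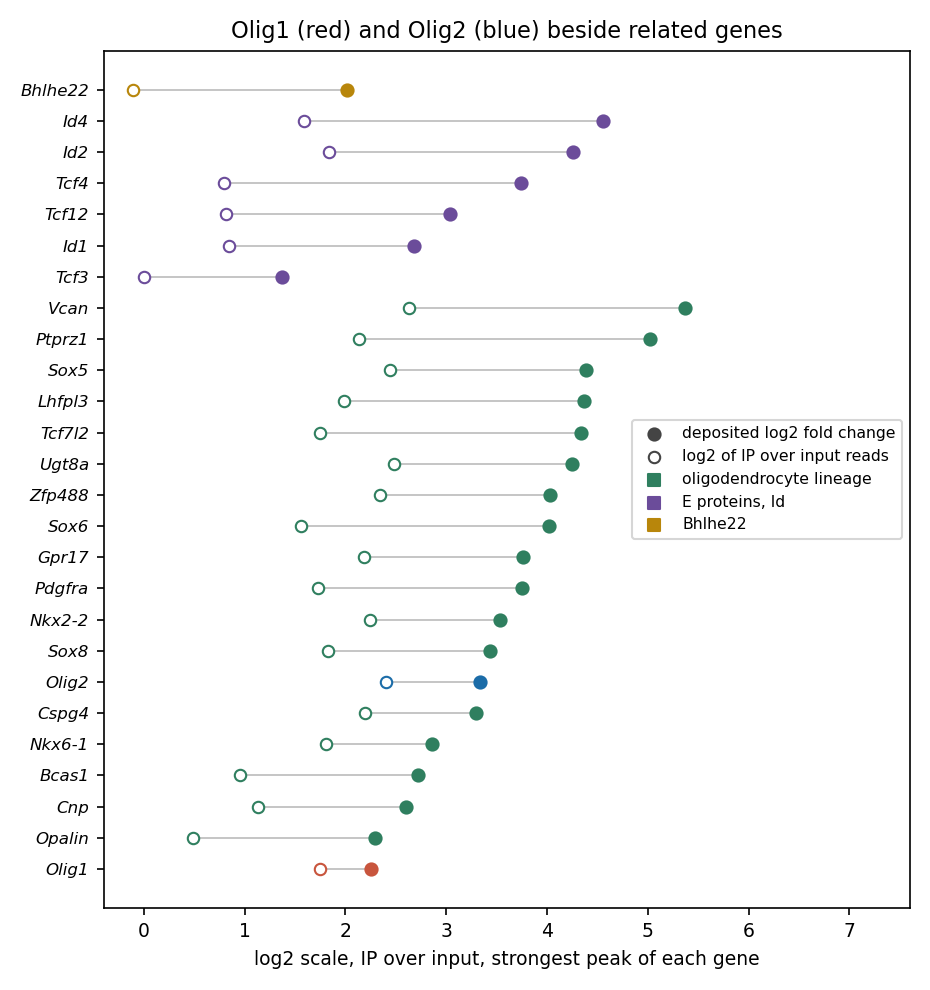
Strongest peak of each gene with a peak in the oligodendrocyte lineage list (green), among E proteins and Id inhibitors (purple) and for Bhlhe22 (gold), with Olig1 in red and Olig2 in blue; filled points are the deposited log2 fold change and open points the log2 of IP over input reads, both on the x axis. Olig1 (2.26) is the lowest filled point of the lineage list and Olig2 (3.34) lies in its lower part, and the distance between open and filled point is shortest for these genes.

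The labelled cell type was checked against other markers, again by peaks alone, and the shares below stand against 44.2% of protein-coding genes. The progenitor, neuronal and astrocyte shares (60%, 50% and 57.1%) lay near that background, so these counts do not identify the cells. Of 10 neural progenitor genes 6 had a peak (Nes, Sox2, Pax6, Hes1, Sox9 and Notch1), and Vim, Hes5, Fabp7 and Msi1 had none. Their summed IP reads ranged from 33 in Sox2 to 7132 in Notch1, far below those of Olig1 and Olig2. Input reads in these peaks were low too, from 10 in Sox2 and 63 in Nes to 3019 in Notch1. Olig1 had 110010 and Olig2 had 43210. None of these sums is per length. Peaks were found in 4 of 8 neuronal genes, with 192 (Rbfox3) to 46421 IP reads (Map2), and in 4 of 7 astrocyte genes, with 7206 (S100b) to 58628 (Slc1a2). Of 6 microglial genes 1 had a peak (P2ry12, 3744 IP reads), in a peak that also lies within the span of Med12l, and Aif1, Cx3cr1, Ptprc, Tmem119 and Csf1r had none. Of 5 endothelial genes 1 had a peak (Kdr, 1677 IP reads). What part other cell types had in the reads of Olig1 and Olig2 was not tested.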

How the data were processed

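Per the submitters' processing notes, bcl2fastq 2.17.1.14, Trimmomatic 0.32 and STAR 2.5.2a were used and the builds GRCm38.p6 and GRCh38.p13 are named, without roles. The peak caller, read counter and pooled libraries are not stated in the sources used here. The authors deposited counts as whole reads per peak in an input column and an IP column. The log2 fold change, p-value and adjusted p-value of each peak are the authors' own. The score the authors deposited was minus log2 of that adjusted p-value for all 21195 peaks, within 1e-06. Both deposited peak files held the same 21195 intervals.

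Starts were taken as 0-based and printed 1-based, and a peak's length is the whole interval. Genes came from RefSeq for GRCm38.p6 by symbol and position, without exons. Ratios, intervals, percentiles (share of peaks with a lower value) and counts were computed with Python 3.11.15, pandas 2.3.3 and SciPy 1.17.1. Assignment and intervals were tested on simulated data. No test was run, because no column belongs to a library or genotype. Genes named are members of the lists and every peak near Olig1 and Olig2; some list members are not reported here and were left out of the counts of their list. The members and lists were chosen with earlier results of these data known. Sequence under the peaks was not used here.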

Additional observations from a re-analysis of the deposited data

How the results depend on the processing

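Leaving out replicates could not be done because reads were deposited pooled. No paired analysis was possible because no column carries a replicate number. Counts of peaks (3 in Olig1, 1 in Olig2) and of lineage genes with a peak (19) did not change under the alternatives run for each (overlap and adjusted p for peaks, overlap and strand for lineage genes). The ratios of 3.35 (Olig1) and 5.28 (Olig2) became 1.24 and 1.95 after division by total IP over total input reads in called peaks. That of Olig1 became 2.59 over its summed peaks. The mean deposited log2 fold change of Olig1 was 2.09. The percentile of Olig1 by deposited fold change, 21.0, was 10.3 among 29 peaks of like input reads (within a factor of 2), 22.4 among peaks of at most 10000 bases and 17.2 among strongest peaks of 911 short genes. By read ratio it was 68.5 or 70.2 (pseudocount 0.5 or 5). For Olig2, 59.4 became 57.5 (73 peaks), 61.1 and 53.6, and by read ratio 90.4 or 92.4. These backgrounds and measures differ by construction.

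Chosen after the data were seen, peaks with at least 10000 input reads put the excess of deposited over read ratio at percentile 1.49 (Olig1) and 7.81 (Olig2). With fragment length added to peak length, input per base of Olig1 peaks 2 and 3 over peak 1 became 1.77 and 1.16, and IP 0.695 and 0.447. A window wider by 100000 bases on each side held 6 other peaks. The number and depth of libraries behind each value are unknown.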
